A study of Mus musculus with 27 samples.

Results

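The genes described here are the nuclear-encoded genes of oxidative phosphorylation, taken by name pattern from the protein-coding genes of both count tables of the series. The patterns are Nduf followed by a, b, c, s or v and a number for complex I, Sdha to Sdhd for complex II, Uqcr for complex III, the Cox genes numbered 4 to 8 for complex IV, and Atp5 for complex V. They matched 85 genes, and 84 of them are among the 53412 genes of the minocycline table and all 85 among the 55421 genes of the enrichment table. A gene was kept where at least 2 libraries held 10 or more counts, which left 81 and 82 genes. After the filter on low counts in the test, 80 of 14579 tested genes in the minocycline experiment and 81 of 15921 in the enrichment experiment were members. Both counts hold 37 genes of complex I, 4 of complex II, 8 of complex III and 17 of complex V, with 14 and 15 of complex IV. Cox8c and Cox7b2 were kept in neither table, Cox4i2 was not kept in the minocycline table, and Cox7a1 was kept in both tables but tested in neither. A second Atp5o entry, listed only in the enrichment table, held 0 counts in every library. The patterns leave out Cyc1, Ndufab1 and Cycs, and they take in Atp5s, which is not a subunit of the ATP synthase, and Cox7a2l, a factor of supercomplexes.

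Oxidative phosphorylation makes ATP at the inner mitochondrial membrane. Complexes I and II pass electrons from NADH and succinate to ubiquinone, complex III passes them to cytochrome c, and complex IV passes them to oxygen. Complexes I, III and IV pump protons, and complex V, the ATP synthase, uses the gradient to make ATP. Most subunits are encoded in the nucleus and a few on mitochondrial DNA, so that both sets must be made for complexes I, III, IV and V, while complex II is nuclear in full. In microglia the balance between this pathway and glycolysis is known to move with the state of activation.

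All libraries came from CD11b+ cells sorted from the prefrontal cortex (PFC) or hippocampus (HC) of C57BJ6 mice, and CD11b is a surface protein of microglia and other myeloid cells. In the minocycline experiment, NAIVE mice were the naive controls (2 libraries a region), CUMS mice went through chronic unpredictable mild stress, a model of depression (2 in PFC, 3 in HC), and CUMS_M mice were stressed and given minocycline, a tetracycline antibiotic (3 a region). In the enrichment experiment all mice were stressed: VEH mice also received vehicle and EE mice environmental enrichment (3 libraries a region each), so it holds no unstressed group. The labels give no age, no dose and no vehicle for the CUMS group, and they do not say whether libraries came from separate animals, so p-values measure the spread between these libraries. Totals were 7867323 to 15278538 counts in the minocycline table and 19519117 to 23902719 in the enrichment table. All 12 microglial markers, among them Cx3cr1, P2ry12 and Tmem119, were detected in every library, with a summed CPM between 36800 and 59400. CPM is the count scaled to a common library size, with TMM factors. In bulk libraries such as these, fewer cells of a type and less RNA per cell cannot be told apart.

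The kept members together took 0.312% to 0.505% of a library's counts. Levels of different genes are compared per kilobase of exon (CPM per kilobase), with the median over the 15 libraries of the minocycline table unless another is named. Cox8a, a small subunit of cytochrome c oxidase, was highest at 143, followed by Atp5a1 (the alpha subunit of the ATP synthase) at 119, Cox6a1 at 119 and Cox4i1 at 115. In the enrichment table the same 4 genes held the first 4 ranks, with Atp5a1 first at 97.9 and Cox8a second at 90.9. The ranges of these neighbours overlapped, for example 121 to 181 for Cox8a and 96.3 to 154 for Atp5a1, so their order is not fixed by these libraries.

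One subunit of each complex gives the scale of the rest. Atp5b, the catalytic beta subunit of complex V, was at 84.8 CPM per kilobase (range 77.2 to 97.6), Sdha, the flavoprotein of complex II, at 43.5 (36.0 to 49.3), and Uqcrc1, a core protein of complex III, at 31.4 (24.2 to 34.5). Ndufv1, which holds the NADH site of complex I, was at 19.7 (16.9 to 23.3), below the whole range of the other named subunits. The exon length used here is the union of all annotated transcripts, so a gene with a long annotated isoform has a lower level per length. Atp5l (6443 bases, 2.03 CPM per kilobase) and Ndufb2 (5628 bases, 1.91) are of that kind.

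**Figure D1:**
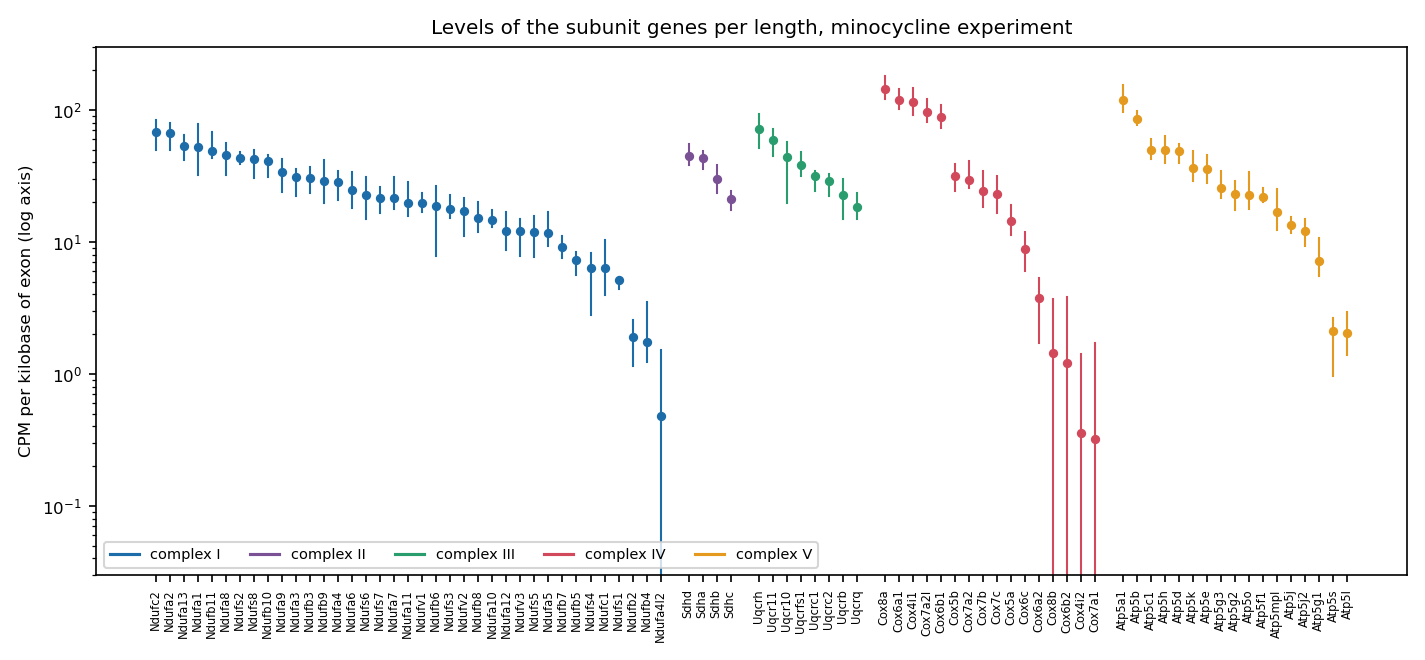
Level of each matched gene with a median above 0 (Cox4i2, which was not kept in this table, included), as CPM per kilobase of exon on a log axis, in the 15 libraries of the minocycline experiment. Points are medians, lines run from the lowest to the highest library, colours mark the complexes, and lines that reach the lower edge end at 0. Cox8a is highest at 143. The tissue isoforms Cox8b, Cox6b2, Cox4i2, Cox7a1 and Ndufa4l2 have medians of 1.45 or less, and the tissue isoform Cox6a2 has a median of 3.77.

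Several subunits come in a common and a tissue isoform, and the common isoform held nearly all of each pair. By level per length, in the median library of the minocycline and the enrichment table, Cox4i1 made up 99.7% and 99.5% of the Cox4 pair, Cox8a 99.2% and 99.7% of the Cox8 pair, and Cox6b1 98.9% in both of the Cox6b pair. Cox7a2 made up 98.9% and 97.4% of its pair, Cox6a1 96.8% and 97.3%, and Ndufa4 98.4% and 99.1% of its pair with Ndufa4l2. Ndufa4 was named for complex I and is now placed with complex IV. By their names, Ndufa4 and Ndufa4l2 are counted under complex I in all values by complex given here. The proton-carrying subunit c of complex V was shared more evenly by its genes, which encode the same mature protein. Atp5g3 held 47.1% and 55.7%, Atp5g2 39.1% and 32.7%, and Atp5g1 12.5% and 11.2%. The range of Atp5g3 in the enrichment table (53.7% to 58.3%) lay above its range in the minocycline table (39.3% to 51.5%), with the tables counted separately. The share of Atp5g1 depends on its union exon length of 4912 bases, against 1675 for Atp5g2 and 2181 for Atp5g3. By CPM without length the medians in the minocycline table were closer, at 35 for Atp5g1, 38.6 for Atp5g2 and 56 for Atp5g3. Many members have processed pseudogenes that can share or lose reads, so levels of genes such as Cox6c, Ndufb4 and Atp5l are uncertain.

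The members moved together between single libraries of the same group. For each complex, the log2 CPM of its members (prior count 2) was averaged in a library and the mean over all libraries of the table was taken off. In the enrichment table, PFC VEH 1 stood highest for every complex, at 0.52 for complex I, 0.44 for II, 0.72 for III, 0.63 for IV and 0.58 for V. HC VEH 1 came next for every complex, at 0.26 to 0.37. PFC VEH 3 (-0.20 to -0.33 by complex) and HC VEH 3 (-0.15 to -0.30) were low in each, so the VEH group of each region held both a high and a low library. The summed level of all members in the PFC was 5400, 3640 and 2970 CPM in VEH and 3840, 3330 and 3160 CPM in EE. In the HC it was 4490, 3300 and 3120 CPM in VEH and 3570, 3780 and 3680 CPM in EE, and in both regions the EE libraries lay inside the range of the VEH libraries.

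Gene by gene, PFC VEH 1 was the highest of 12 libraries for 66 of 81 members (81.5%), and for 17.1% of all tested genes. In both PFC VEH 1 and HC VEH 1, 78 members were above their own mean over the libraries. Cytosolic ribosomal proteins stood out in the same libraries: the mean log2 CPM of 81 of their genes was 8.53 in PFC VEH 1, 8.12 in HC VEH 1 and 6.92 to 7.77 in the other libraries. The 12 neuronal markers summed to 73.3 CPM in PFC VEH 1 and 52.6 in HC VEH 1, and to 20.3 to 51.9 in the others, while the microglial sum of PFC VEH 1 was the highest of that table. The choroid plexus markers were at a summed 0.644 and 0.66 CPM in PFC VEH 1 and HC VEH 1, with Folr1 at 0 and 0.141. The part of these lists in the level of the members was not tested.

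**Figure D2:**
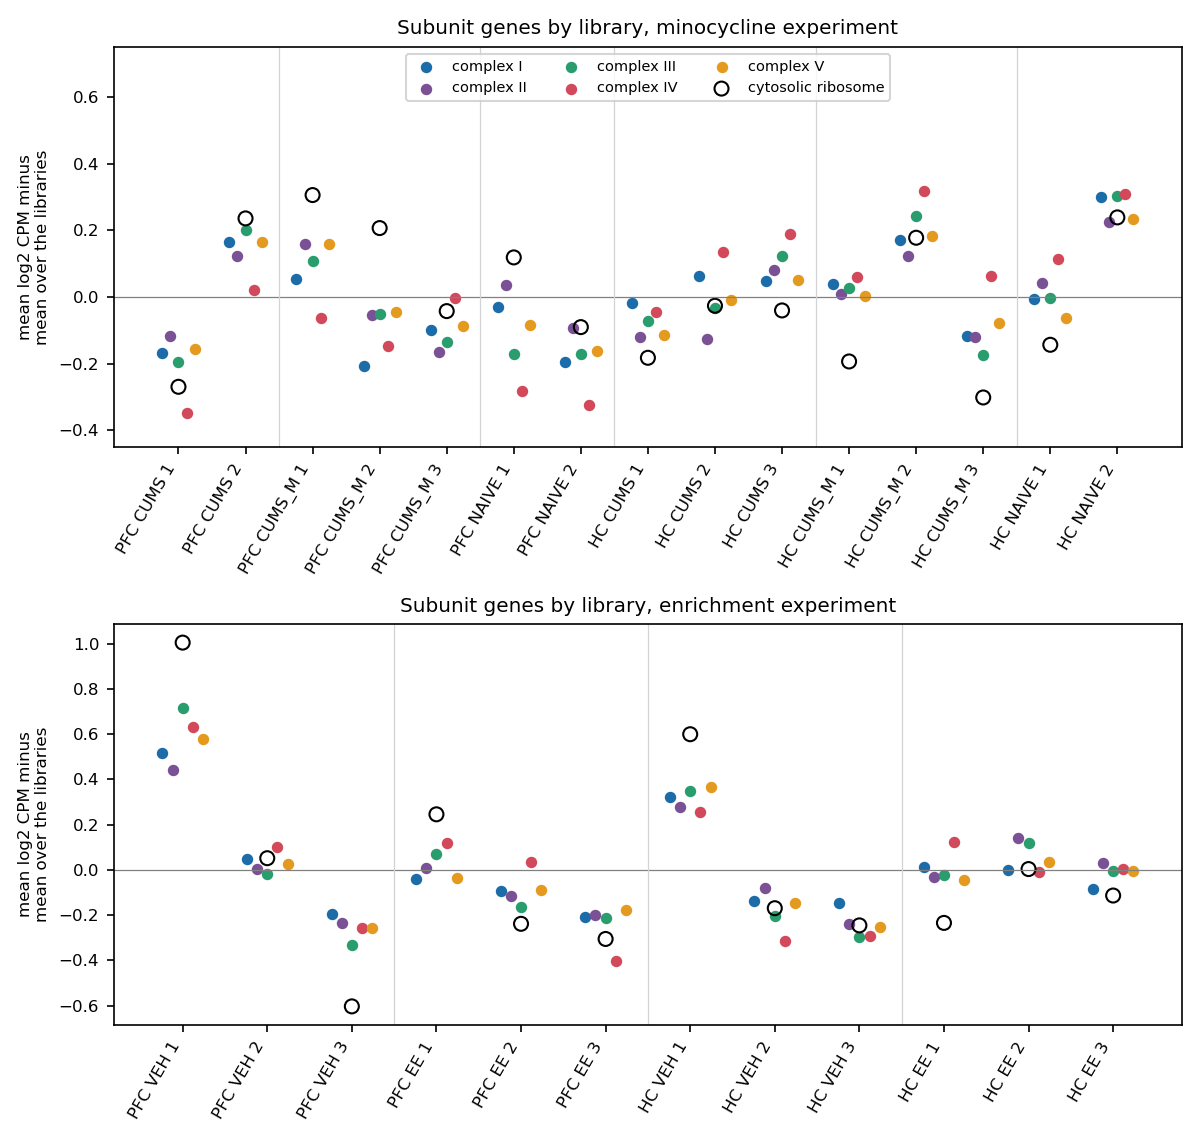
Mean log2 CPM of the members of each complex (filled points) and of cytosolic ribosomal proteins (open circles) in each library, as the difference from the mean over the libraries of the experiment. The upper panel is the minocycline and the lower panel the enrichment experiment, with vertical lines between groups. PFC VEH 1 is highest in each complex (0.44 to 0.72), and the complexes of a library lie mostly on the same side of 0.

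In the minocycline table the spread was smaller. HC NAIVE 2 was highest for 36 of 80 members (45%) and for 7.20% of all tested genes, with complex means of 0.22 to 0.31, and HC CUMS_M 2 was highest for another 12 members. PFC NAIVE 2 was lowest for 19 members and PFC CUMS 1 for 14. The summed level was 3850 and 4780 CPM in PFC CUMS, 4450 and 3920 in PFC NAIVE, and 4700, 4170 and 3930 in PFC CUMS_M. In the HC it was 4100, 4280 and 4680 CPM in CUMS, 4320 and 5110 in NAIVE, and 4390, 4930 and 4060 in CUMS_M. In each region the sums of the NAIVE, CUMS and CUMS_M libraries overlapped. PFC NAIVE 1 was the lowest library for 22.6% of all tested genes, a larger share than any other library of that table, and for 10 members.

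The first comparison asks what the stress protocol did, CUMS against NAIVE. In the PFC no member passed the edgeR quasi-likelihood test at a Benjamini-Hochberg adjusted p under 0.05 over all genes, where 0.816% of all genes passed (0.741% higher, 0.0755% lower). The DESeq2 Wald test also called 0 members, and the share of all genes it called is given for no comparison here. By edgeR, 6 members had an unadjusted p under 0.05, where 13.7% of all genes had. The median log2 fold change was 0.08 over the 80 members and 0.02 over all genes, with 56 members above 0. By complex the medians were 0.04 for I, 0.05 for II, 0.16 for III, 0.06 for IV and 0.14 for V. In the same comparison 7 of 12 astrocyte markers and 4 of 12 endothelial and mural markers were called higher in CUMS, and their part in the values of the members was not tested. With 95% intervals, a change of 2-fold or more in either direction was outside the interval for 72 of the 80 members and one of 1.5-fold for 46. Without PFC CUMS 2 the median over the members was -0.10 and without PFC CUMS 1 it was 0.25, and the sign turned with the library left out.

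Ndufb6, an accessory subunit of complex I, had the smallest p of the members in that comparison. It was at 12.2 and 13.5 CPM in PFC CUMS and at 8.89 and 5.18 in PFC NAIVE. The groups did not overlap, and the log2 fold change was 0.87 (SE 0.32, edgeR adjusted p = 0.230). Ndufs4, needed for a stable NADH-oxidising arm of complex I and picked here after its values were seen, was at 17.8 and 19.1 CPM in CUMS and at 7.58 and 16.3 in NAIVE. It passed the test, with an adjusted p of 0.0115 and a log2 fold change of 1.28, where PFC NAIVE 2 was left out and the reference was PFC NAIVE 1 alone. Cox6a2, the heart and muscle isoform of Cox6a, was at 1.31 and 1.58 CPM in CUMS and at 2.88 and 3.33 in NAIVE, and the log2 difference of -1.10 (SE 0.53) had an adjusted p of 0.363. In all, 15 members were higher (18.8%) and 4 lower (5%) in CUMS with no overlap of the libraries, where 24.2% and 19.4% of all genes were.

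In the HC the same comparison had no called member and no called gene at all (0%), with 1 member at an unadjusted p under 0.05, where 2.87% of all genes had one, and 0 members called by DESeq2. The median over the members was -0.14 (all genes -0.01), and 72 of 80 members were below 0. By complex it was -0.13, -0.19, -0.12, -0.13 and -0.14 from I to V. The sign rested on HC NAIVE 2, the library in which the members stood highest: without it the median was 0.03, and without HC NAIVE 1 it was -0.26. A change of 2-fold lay outside the 95% interval for 74 members. Ndufa7, an accessory subunit of complex I, had the smallest p. It was at 40.7, 39.3 and 37.8 CPM in HC CUMS and at 45.6 and 56.6 in HC NAIVE, so the groups did not overlap, and the log2 difference was -0.38 (SE 0.14, edgeR adjusted p = 1). Sdhd, a membrane anchor of complex II, was at 53.5, 53.7 and 56.2 CPM in CUMS and at 60.4 and 67.4 in NAIVE (log2 difference -0.23, SE 0.12). Only Atp5s was higher with no overlap (1 of 80, 1.25%) and 8 members were lower (10%), where 10.3% and 10.1% of all genes were.

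The difference between the regions in the response to stress had a median of -0.23 over the members, HC minus PFC, with 64 of 80 below 0. No member passed the edgeR test of that difference (0 of 80, 0% of all genes, and 0 by DESeq2), and 6 had an unadjusted p under 0.05, where 6.27% of all genes had one. Leaving out 1 library at a time moved the median from -0.40 (without HC NAIVE 1) to -0.01 (without PFC CUMS 2). Ndufa7 had the smallest p, with a difference of -0.61 (SE 0.21, edgeR adjusted p = 0.631), and Sdhd a difference of -0.48 (SE 0.18, edgeR adjusted p = 0.643).

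The second comparison asks what minocycline did in stressed mice, CUMS_M against CUMS, and it shares the CUMS libraries with the first. No member passed the edgeR test in either region, where 0.0206% of all genes passed in the PFC and 0.00686% in the HC, and DESeq2 called 0 members in both. An unadjusted p under 0.05 was seen for 1 member in the PFC and 0 in the HC, where 5.54% and 4.01% of all genes had one. The medians over the members were -0.02 in the PFC (38 above 0, 42 below) and 0.04 in the HC (54 above 0, 26 below), beside 0.02 and 0.01 over all genes. By complex they lay between -0.07 and 0.03 in the PFC and between -0.01 and 0.06 in the HC. A change of 2-fold lay outside the 95% interval for 75 members in the PFC and 76 in the HC, and one of 1.5-fold for 60 and 65. In the PFC the median was -0.17 without CUMS 1 and 0.17 without CUMS 2. The difference between the regions had a median of 0.06 and no called member by either tool, where 0.00686% of all genes were called, and 0 members had an unadjusted p under 0.05, beside 3.47% of all genes.

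The member with the smallest p in the PFC was Ndufa4l2, the paralogue of Ndufa4 that is induced by hypoxia. It was at 1.08 and 1.67 CPM in PFC CUMS and at 0, 0.119 and 0.262 CPM in PFC CUMS_M, and the groups did not overlap. The log2 difference was -3.29 (SE 1.10, edgeR adjusted p = 0.479), on few counts. In PFC NAIVE the gene was at 0.523 and 0.123 CPM, and in the HC at 1.63, 1.55 and 0.418 CPM in CUMS and 0.933, 0.154 and 0.220 in CUMS_M, where the groups overlapped. Ndufa4l2 is known from pericytes of brain vessels. The 12 endothelial and mural markers summed to 172 and 220 CPM in PFC CUMS and to 87.3, 75.7 and 101 in PFC CUMS_M, and to 80.1 and 102 in PFC NAIVE. Their part in the level of Ndufa4l2 was not tested. All 12 were detected in that table, with Tek and Emcn at 0 in 2 libraries each and Kcnj8 in 1.

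The counts of members that did not overlap between CUMS_M and CUMS were small. In the PFC 0 members were higher and 3 lower (3.75%, Ndufs7, Ndufa10 and Ndufa4l2), where 8.98% and 12% of all genes were. In the HC 4 were higher (5%, Ndufv2, Ndufb7, Ndufb10 and Atp5k) and 0 lower, where 6.04% and 4.27% of all genes were. Atp5k, a membrane subunit of complex V, was at 23.1, 28.3 and 23.3 CPM in HC CUMS_M and at 18.8, 21.5 and 22.4 in HC CUMS, a log2 fold change of 0.25 (SE 0.16, edgeR adjusted p = 1). The fitted fold of Cox8b in the PFC rests on 6 counts of 1 CUMS_M library against 0 counts in CUMS.

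Stressed mice with minocycline were also set against NAIVE mice, a comparison that shares the NAIVE libraries with the first and the CUMS_M libraries with the second. In the PFC no member passed (0.0892% of all genes did, 0.0755% higher and 0.0137% lower, and DESeq2 called 0 members), and 7 members, all higher, had an unadjusted p under 0.05, where 14% of all genes had one. The median was 0.06 over the members and 0.03 over all genes. Uqcr10, a small subunit of complex III, was at 26.1, 24.5 and 23.3 CPM in PFC CUMS_M and at 11.5 and 18.4 in PFC NAIVE. The groups did not overlap, and the log2 fold change was 0.72 (SE 0.21, edgeR adjusted p = 0.177). It passed with no filter on low counts (adjusted p = 0.0272) and without PFC NAIVE 2 (adjusted p = 0.0210). Ndufs4 was at 17.8, 22.5 and 18.6 CPM in CUMS_M (log2 fold change 0.71, SE 0.24, edgeR adjusted p = 0.221), and it too passed without PFC NAIVE 2 (adjusted p = 0.00766). Cox7c, a small subunit of complex IV, was at 28.5, 35.5 and 26.8 CPM in CUMS_M and at 18.7 and 23.9 in NAIVE (log2 fold change 0.50, SE 0.21). In all, 14 members were higher (17.5%) and 4 lower (5%) with no overlap, where 13.9% and 11.4% of all genes were.

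In the HC the comparison of CUMS_M with NAIVE had a median of -0.09 over the members (all genes 0.00), with 68 of 80 below 0. No member and no gene passed the edgeR test (0%), DESeq2 called 0 members, and 0 members had an unadjusted p under 0.05, where 2.33% of all genes had one. Without HC NAIVE 2 the median was 0.06. Ndufb3, an accessory subunit of complex I, had the smallest p. It was at 19.7, 20 and 21.4 CPM in CUMS_M and at 24.9 and 27.8 in NAIVE, without overlap (log2 difference -0.37, SE 0.19, edgeR adjusted p = 1). There were 2 members higher (2.50%, Cox6b2 and Atp5s) and 5 lower (6.25%) with no overlap, where 9.54% and 8.16% of all genes were.

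**Figure D3:**
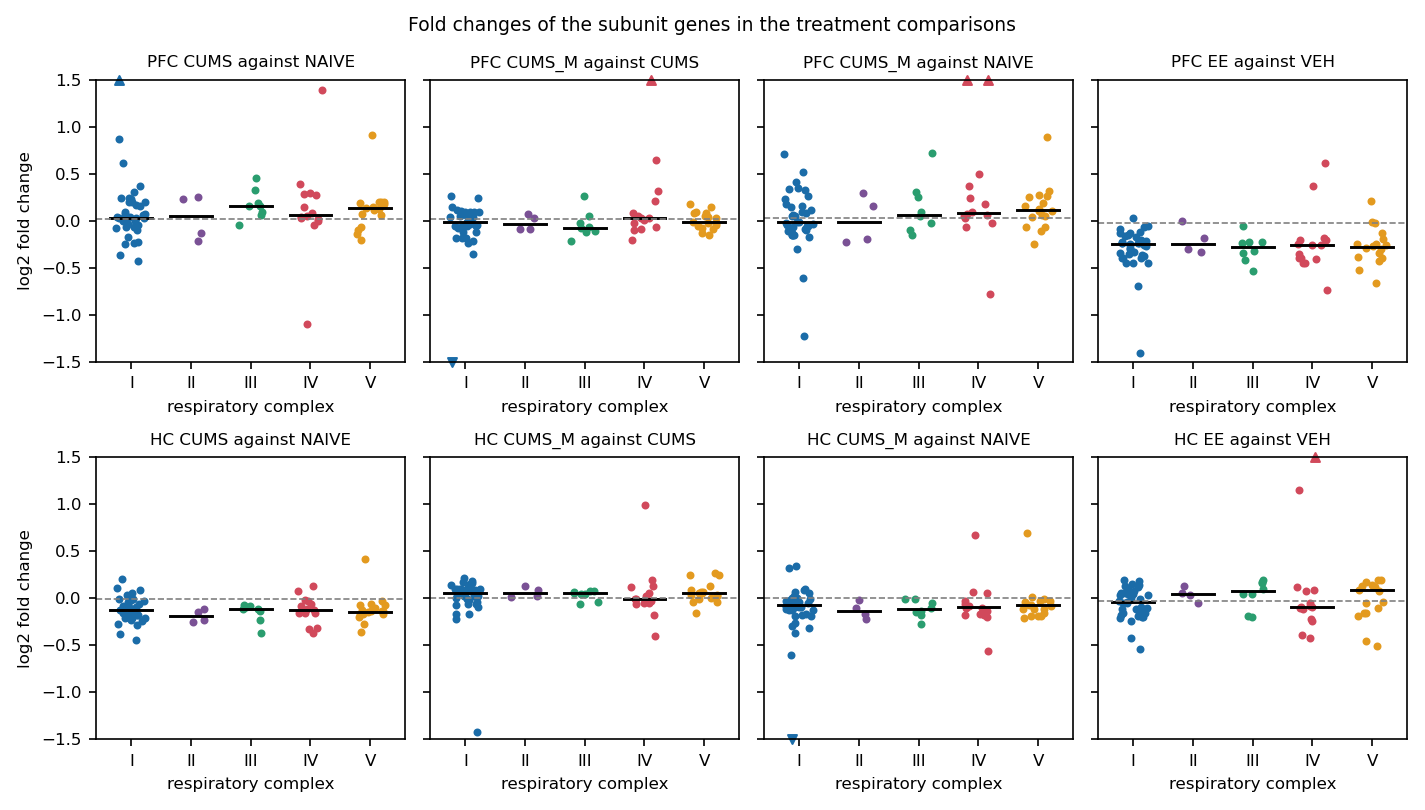
Log2 fold changes of the tested members in the 8 treatment comparisons, by complex. Each point is a gene, black lines are medians by complex, dashed lines the median of all tested genes, and triangles mark genes beyond the axis range. No member was called in any of the 8 comparisons, and in the PFC under EE 77 of 81 members lie below 0.

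The third comparison asks what environmental enrichment did in stressed mice, EE against VEH. In the PFC 77 of 81 members were below 0, with a median log2 difference of -0.26 (all genes -0.02), and the complexes were alike, at -0.25, -0.24, -0.28, -0.26 and -0.27 from I to V. No member and no gene passed the edgeR test (0%), DESeq2 called 0 members, and 2 members had an unadjusted p under 0.05, where 4.25% of all genes had one. The median rested on PFC VEH 1: without it the value was 0.04, and without PFC VEH 3 it was -0.45. The cytosolic ribosomal proteins moved with the members in this comparison, with a median of -0.40. The 95% intervals were wide, and a 1.5-fold change lay outside them for 18 of 81 members and a 2-fold change for 65.

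Ndufb2, an accessory subunit of complex I, had the smallest p in the PFC. It was at 9.32, 8.69 and 9.10 CPM in VEH and at 3.97, 6.19 and 6.58 in EE, so that the groups did not overlap and PFC VEH 1 did not stand out. The log2 difference was -0.69 (SE 0.28, edgeR adjusted p = 0.986). Cox4i1, the common isoform of subunit 4 of cytochrome c oxidase, was picked after its values were seen to show the spread of the VEH libraries. It was at 241, 132 and 82.3 CPM in VEH and at 155, 104 and 99.0 in EE, and the VEH libraries spanned all the EE libraries. With no overlap, 0 members were higher and 5 lower (6.17%, Ndufb2, Ndufs3, Ndufa12, Ndufb4 and Ndufb7), where 4.80% and 4.39% of all genes were. All of these are genes of complex I, which holds 37 of the 81 tested members, and the medians by complex were alike.

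In the HC, EE against VEH had a median of -0.03 over the members and -0.03 over all genes, with 39 above 0 and 42 below. No member and no gene passed the edgeR test (0%), DESeq2 called 0 members, and 1 member, Cox8b, had an unadjusted p under 0.05, where 10.4% of all genes had one. The medians by complex were -0.04, 0.04, 0.07, -0.09 and 0.08 from I to V. Without HC VEH 1 the median over the members was 0.18 and without HC VEH 3 it was -0.11. Atp5l, a subunit of the membrane part of complex V, was at 9.76, 7.57 and 7.96 CPM in VEH and at 5.73, 6.87 and 5.13 in EE. These groups did not overlap, with a log2 difference of -0.51 (SE 0.24, edgeR adjusted p = 0.486). With no overlap, 4 members were higher (4.94%, Cox8b, Ndufs1, Ndufs5 and Cox6b2) and 2 lower (2.47%, Atp5l and Atp5s), where 9.66% and 6.36% of all genes were.

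The difference between the regions in the effect of EE, HC minus PFC, had a median of 0.26 over the members, with 75 of 81 above 0. No member and no gene passed the test of that difference (0%, and 0 members by DESeq2), and 1 member had an unadjusted p under 0.05, where 4.21% of all genes had one. Without PFC VEH 1 the median was -0.03. With both PFC VEH 1 and HC VEH 1 left out, an alternative chosen after the data were seen, the median was 0.04 in the PFC, 0.18 in the HC and 0.14 for the difference.

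Regions were compared last. In the minocycline table, averaged over the treatments, 5 members were higher and 1 lower in the HC than in the PFC by the edgeR test, 6 of 80, where 3.43% of all genes were higher and 1.67% lower (5.1% in all). The 5 higher members include Cox8b, which was kept only through its HC counts. The DESeq2 Wald test called the same 6 genes, and the share of all genes it called is not given here. The median over the members was 0.09 and over all genes 0.02, and it was 0.12, 0.04, 0.12, 0.08 and 0.09 from complex I to V. In the enrichment table the same comparison had a median of -0.02 and no called member and no called gene (0%), with 0 members at an unadjusted p under 0.05 (all genes 2.08%) and 0 by DESeq2. The 7 PFC libraries of the minocycline table had 7867323 to 12400922 counts and its 8 HC libraries 11806044 to 15278538.

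The 4 higher genes with more than a trace of expression belong to complexes I, III and V. Uqcr10 (complex III) ran from 11.5 to 26.1 CPM in the PFC, with a median of 23.3, and from 25.5 to 33.1 CPM, with a median of 27.0, in the HC. The ranges overlapped only at their edges, and the log2 fold change was 0.52 (SE 0.12, edgeR adjusted p = 0.0120). Uqcr11, another small subunit of complex III, ran from 28.6 to 40.3 CPM (median 33.9) in the PFC and from 35.0 to 46.0 (median 41.3) in the HC, which overlap over part of their length, with a log2 fold change of 0.29 (SE 0.08, edgeR adjusted p = 0.0461). Ndufv3, a subunit of the NADH-oxidising arm of complex I, ran from 25.1 to 38.1 CPM (median 33.2) in the PFC and from 34.1 to 47.2 (median 39.3) in the HC, with a like overlap and a log2 fold change of 0.34 (SE 0.08, edgeR adjusted p = 0.0172). Atp5d, the delta subunit in the central stalk of complex V, ran from 76.3 to 94.3 CPM (median 78.6) in the PFC and from 93.1 to 107 (median 98.0) in the HC, where 1 PFC library reached the lowest HC libraries, with a log2 fold change of 0.26 (SE 0.06, edgeR adjusted p = 0.0215).

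In the enrichment table these 4 genes did not pass the test, and all had an adjusted p of 1 by edgeR. The log2 differences, HC minus PFC, were -0.22 for Uqcr10 (95% interval -0.61 to 0.17), -0.06 for Uqcr11 (-0.48 to 0.37), -0.04 for Ndufv3 (-0.28 to 0.20) and -0.02 for Atp5d (-0.29 to 0.25). In the minocycline table the 95% intervals were 0.28 to 0.76 for Uqcr10, 0.12 to 0.46 for Uqcr11, 0.18 to 0.51 for Ndufv3 and 0.13 to 0.39 for Atp5d. Those of Uqcr11, Ndufv3 and Atp5d overlapped the intervals of the enrichment table, and that of Uqcr10 did not. The 4 genes were named because they were called in the minocycline table, and the difference between the tables was not tested. In the minocycline table all 4 lost the call where PFC CUMS 1 or HC NAIVE 2 was left out, with adjusted p up to 0.0664 for Uqcr10, 0.0904 for Ndufv3, 0.119 for Atp5d and 0.189 for Uqcr11 over all the single libraries left out. Among these, Uqcr11 kept the call only without HC CUMS_M 3, PFC CUMS 2 or PFC CUMS_M 3, and it lost it with the replicate number as a block (edgeR adjusted p = 0.127). In this comparison 8 of 12 endothelial and mural, 6 of 8 choroid plexus and 3 of 12 astrocyte markers were called higher in the HC, and 3 of 12 neuronal markers lower. With the mean level of non-microglial markers as a covariate 0 members were called by edgeR, with adjusted p from 0.133 for Atp5o to 0.858 for Uqcr11. The share of all genes called in that fit is not given here. The covariate takes in choroid plexus markers, which differed by region. They summed to 614 CPM in PFC CUMS_M 3, 1.31 to 3.34 in the other PFC libraries and 567 to 1950 in the HC. The loss of the calls therefore cannot be told apart from this overlap of covariate and region. The log2 differences in that fit were -0.62 for Atp5o, 0.50 for Uqcr10, 0.33 for Atp5d, 0.31 for Ndufv3 and 0.18 for Uqcr11, each in the same direction as without the covariate.

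**Figure D4:**
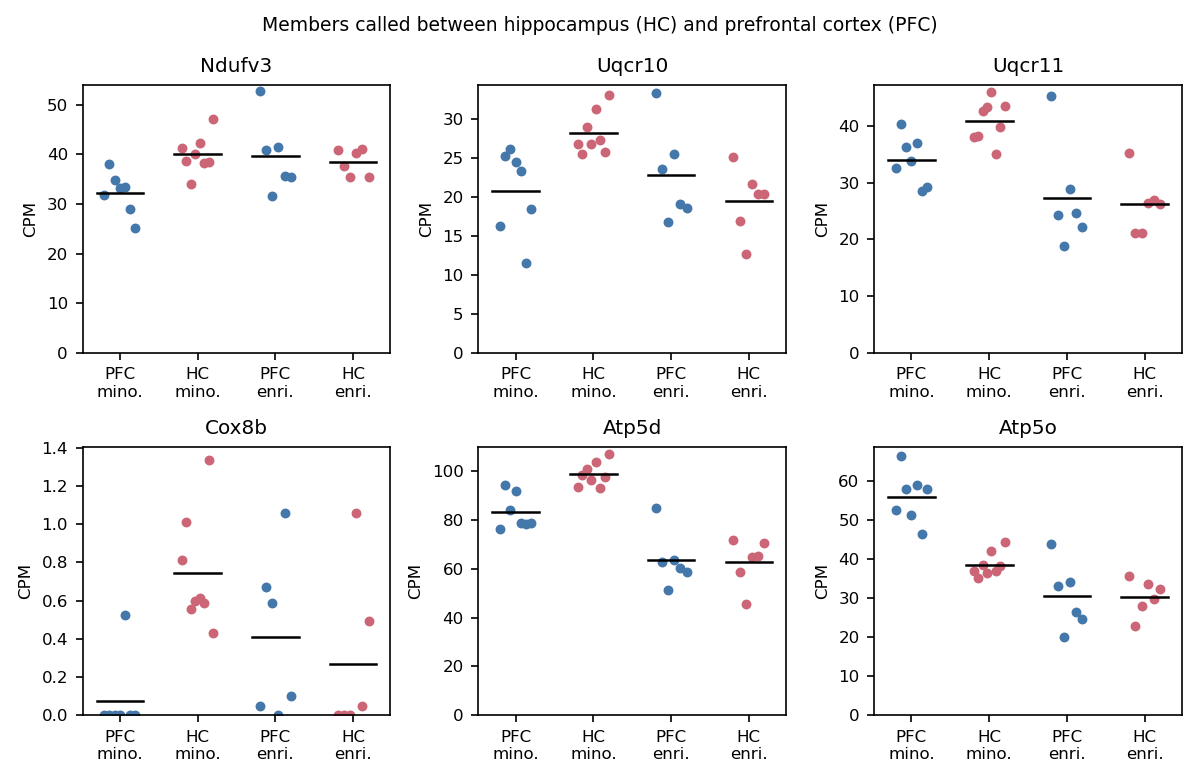
CPM of the 6 members called between the regions in the minocycline experiment, for PFC (blue) and HC (red) libraries of the minocycline (mino.) and enrichment (enri.) experiments. Points are libraries, bars are means, and axes start at 0. Atp5o separates the regions in the minocycline experiment (46.3 to 66.4 against 35.2 to 44.4 CPM) and not in the enrichment experiment.

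Atp5o, which encodes the oligomycin-sensitivity subunit that ties the head of complex V to its stalk, was the only member called lower in the HC. It ran from 46.3 to 66.4 CPM (median 57.8) in the PFC and from 35.2 to 44.4 (median 37.6) in the HC. It was also the only member of 80 whose regions did not overlap (1.25%), where 0.487% of all genes were lower and 0.761% higher without overlap. The log2 difference was -0.52 (SE 0.08, edgeR adjusted p = 0.000472), and it was called with each library left out in turn, with adjusted p up to 0.00379. In the enrichment table the gene ran from 20 to 43.9 CPM in the PFC and from 22.8 to 35.7 in the HC, with a log2 difference of 0.00 (95% interval -0.36 to 0.37).

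A measured feature of the tables bears on Atp5o. The gene at chr16:91925214-91931687 (GRCm38, minus strand) shares 12.3% of its exon bases, on the same strand, with the second Atp5o entry, which is one of 2009 entries listed only in the enrichment table. Among the 66 tested genes of the minocycline table that share exon bases with such entries, 28 were lower in the HC (42.4%), beside 1.49% of the 14513 other genes. Rps10, a ribosomal gene of that kind, was at 239 to 371 CPM in the PFC libraries and at 2.05 to 6.28 in the HC libraries of the minocycline table, and at 3.50 to 9.18 in all libraries of the enrichment table. Atp5o was the only member among the 66 genes. Whether the PFC and HC columns of the minocycline table were counted with different annotations was not tested. With those genes left out, an alternative chosen after the data were seen, the 5 higher members were still called, with adjusted p from 0.0133 to 0.0484.

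Cox8b, the heart and muscle isoform of Cox8, was the remaining called gene. Its call is given as a description, because the gene passed the rule of 10 counts only through the region where it was high. The gene held 10 or more counts in 3 libraries of the minocycline table, all of the HC. It had 0 counts in 6 of the 7 PFC libraries and 6 counts (0.523 CPM) in the other, PFC CUMS_M 3, and 5 to 17 counts (0.430 to 1.34 CPM) in each of the 8 HC libraries. Summed over the libraries this was 81 counts in the HC and 6 in the PFC, 0.745 and 0.0860 CPM, or an 8.66-fold ratio. The edgeR test gave an adjusted p of 0.0165, and its fitted fold depends on the prior count. The call was lost without PFC CUMS 1, PFC CUMS 2 or HC NAIVE 1, with adjusted p up to 0.0724, and with the replicate number as a block (edgeR adjusted p = 0.065). Among the enrichment libraries the gene had 1, 14 and 15 counts in PFC VEH, 0, 22 and 2 in PFC EE, 0 in each HC VEH library, and 23, 1 and 10 in HC EE. HC EE was at least 11.4-fold higher than HC VEH, against a floor of 3 counts over the 3 VEH libraries (counting error only), with an edgeR adjusted p of 0.310, or 0.0223 with no filter on low counts.

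The level of choroid plexus markers is given beside Cox8b, and its part in the Cox8b counts was not tested. Ttr, the transthyretin gene and a defining marker of choroid plexus epithelium, was at 1.16 to 2.61 CPM in the 6 PFC libraries of the minocycline table without Cox8b and at 566 in PFC CUMS_M 3, and from 529 to 1790 in the HC. Folr1, another marker, was at 0 in those 6 libraries, at 4.45 CPM in PFC CUMS_M 3 and at 4.67 to 21.3 in the HC. In the enrichment table Ttr was at 0.0991 CPM in PFC VEH 1, 11.7 in PFC EE 1, 0.283 in HC VEH 1 and 0.704 in HC VEH 2, where Cox8b had 0 or 1 count. It was at 693 to 1860 CPM in the 5 libraries with 10 or more Cox8b counts. PFC EE 3, HC VEH 3 and HC EE 2 had Ttr at 194 to 465 CPM and 0 to 2 Cox8b counts. The summed level of the 8 choroid plexus markers was 0.644 to 2000 CPM over all libraries, and its part in the other region calls was not tested.

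**Figure D5:**
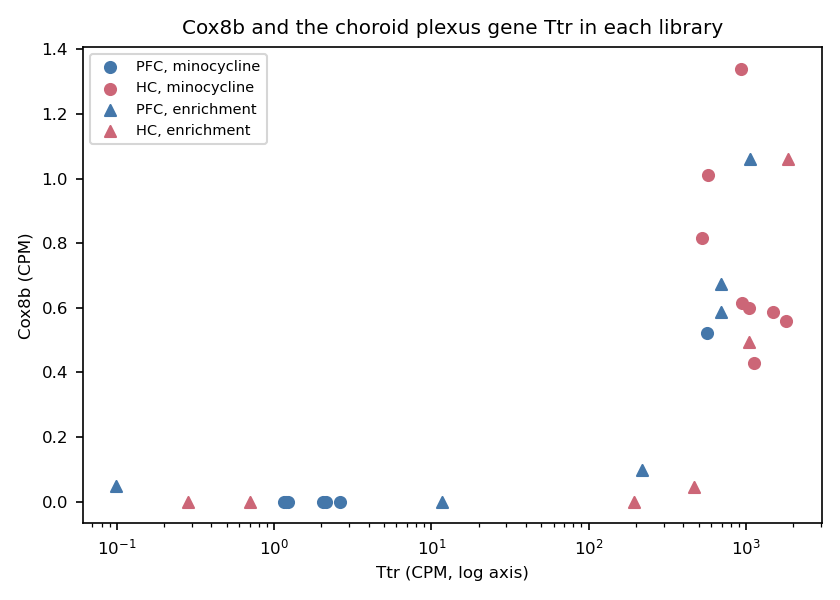
CPM of Cox8b against CPM of Ttr (log axis) in each of the 27 libraries. Circles are the minocycline and triangles the enrichment experiment, PFC is blue and HC red. Every library with 5 or more Cox8b counts has Ttr at 529 CPM or more.

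The promoters of the 6 genes called between the regions of the minocycline table, 5 higher and 1 lower in the HC, are printed to show their sequence, with Cox8a beside Cox8b as the common isoform, and Atp5j, whose promoter holds 3 of the motifs searched. Sequences are from RefSeq (GRCm38.p6), 250 bases up to the base before the transcript start, 5′ to 3′ on the strand of the gene, and capitals mark motif matches. The windows are chr11:4704345-4704594 (Uqcr10, minus strand), chr10:80406822-80407071 (Uqcr11, minus), chr17:31519865-31520114 (Ndufv3, plus), chr10:80142025-80142274 (Atp5d, plus), chr16:91931631-91931880 (Atp5o, minus), chr7:140900447-140900696 (Cox8b, minus), chr19:7217617-7217866 (Cox8a, minus) and chr16:84834977-84835226 (Atp5j, second start, minus).
Uqcr10: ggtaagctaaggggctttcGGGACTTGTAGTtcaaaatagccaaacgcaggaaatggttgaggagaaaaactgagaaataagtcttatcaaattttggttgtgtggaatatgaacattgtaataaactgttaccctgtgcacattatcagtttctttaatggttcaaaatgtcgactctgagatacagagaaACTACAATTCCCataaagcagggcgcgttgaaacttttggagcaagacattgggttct
Uqcr11: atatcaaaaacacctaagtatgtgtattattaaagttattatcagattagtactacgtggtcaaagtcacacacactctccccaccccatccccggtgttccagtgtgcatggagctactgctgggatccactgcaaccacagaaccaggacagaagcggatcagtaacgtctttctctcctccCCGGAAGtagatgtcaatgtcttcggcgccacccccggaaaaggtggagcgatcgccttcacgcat
Ndufv3: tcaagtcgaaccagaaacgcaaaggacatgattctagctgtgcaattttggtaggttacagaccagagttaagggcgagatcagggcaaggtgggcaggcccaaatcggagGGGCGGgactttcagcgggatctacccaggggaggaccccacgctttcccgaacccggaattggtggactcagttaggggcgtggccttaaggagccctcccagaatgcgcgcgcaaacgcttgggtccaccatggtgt
Atp5d: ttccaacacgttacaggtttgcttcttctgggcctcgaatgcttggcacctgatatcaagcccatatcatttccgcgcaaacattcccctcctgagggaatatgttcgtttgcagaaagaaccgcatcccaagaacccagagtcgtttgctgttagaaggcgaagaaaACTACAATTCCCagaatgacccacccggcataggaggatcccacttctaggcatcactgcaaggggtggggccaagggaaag
Atp5o: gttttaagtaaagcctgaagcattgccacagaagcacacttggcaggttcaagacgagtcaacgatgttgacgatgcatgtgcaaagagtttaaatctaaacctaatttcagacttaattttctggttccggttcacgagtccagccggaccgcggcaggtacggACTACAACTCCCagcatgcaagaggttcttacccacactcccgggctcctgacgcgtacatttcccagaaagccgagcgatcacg
Cox8b: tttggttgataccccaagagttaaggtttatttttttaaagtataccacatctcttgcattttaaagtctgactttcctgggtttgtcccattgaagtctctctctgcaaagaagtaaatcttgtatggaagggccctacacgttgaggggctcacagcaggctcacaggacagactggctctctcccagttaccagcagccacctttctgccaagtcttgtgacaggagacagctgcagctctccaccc
Cox8a: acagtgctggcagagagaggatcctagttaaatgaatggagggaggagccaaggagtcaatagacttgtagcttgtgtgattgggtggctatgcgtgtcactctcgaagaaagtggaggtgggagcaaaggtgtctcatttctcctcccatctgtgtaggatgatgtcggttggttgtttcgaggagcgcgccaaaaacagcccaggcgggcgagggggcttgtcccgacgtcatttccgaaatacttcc
Atp5j: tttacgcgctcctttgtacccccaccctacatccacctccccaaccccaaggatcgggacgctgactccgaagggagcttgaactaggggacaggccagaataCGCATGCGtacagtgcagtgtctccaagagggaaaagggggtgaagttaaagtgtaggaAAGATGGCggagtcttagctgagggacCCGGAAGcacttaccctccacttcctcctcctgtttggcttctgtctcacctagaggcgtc

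A promoter entry was found for 68 of the 85 members. Motifs were searched on both strands, as the core CGCATGCG of NRF1, CCGGAAG of ETS factors such as GABP, AAGATGGC of YY1, the GC box GGGCGG of Sp1, TATAAA, and the site of ZNF143 with 1 free base (in capitals in Uqcr10, Atp5d and Atp5o). The last was added after the promoters of the called genes had been read. NRF1 and GABP are known regulators of respiratory genes. The NRF1 core was in 7 members (10.3%, and 9.59% of the 73 promoters of members) and in 1.55% of the 32851 promoters of the table. The ETS core was in 12 members (17.6%, and 16.4% of their promoters) and in 6.91% of all promoters. The ZNF143 site was in 4 members (5.88%, and 6.85% of their promoters) and in 0.883% of all promoters. The members were Uqcr10, Atp5d and Atp5o, which were called between the regions, and Ndufa3. Because the site was picked from promoters of called genes, its share and its presence in them are not a test. In Uqcr10 it starts 58 bases before the start and again, on the other strand, at 231, in Atp5d at 82 and in Atp5o at 85. Atp5d has 2 starts, and the window of the first is printed. The same site lies 122 bases before the second start, so it is counted in both Atp5d promoters. Of the genes with the site, Uqcr10 and Atp5d were higher and Atp5o lower in the HC, and Ndufa3 had a log2 fold change of 0.23 (SE 0.10, edgeR adjusted p = 0.207). The GC box was in 36.8% of members, 34.2% of their promoters and 32.7% of all promoters. TATAAA was in 8.82%, 9.59% and 12.4%, and the YY1 core in 1.47%, 1.37% and 1.56%. A match is a description of letters, and Cox8a and Cox8b hold none of the motifs in this window.

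Other genes of the pathway were counted in the same fits. Of the 13 subunits encoded on mitochondrial DNA, 8 were tested. In the minocycline table mt-Atp6 and mt-Atp8 were at 0 CPM in every library, and mt-Co2, mt-Co3 and mt-Nd4l reached at most 1.05 CPM. The tested mt-Nd3 was at 0.154 to 1.56 CPM, where mt-Co1 was at 1790 to 5000. The cause of these low counts was not tested, and the calls and list median below are over the 8 tested genes. Between the regions of the minocycline experiment 3 were lower in the HC, mt-Nd5 (-0.71, SE 0.14, edgeR adjusted p = 0.0163) and mt-Nd2 (-0.80, SE 0.19) of complex I and mt-Cytb (-0.71, SE 0.17) of complex III, and the list had a median of -0.57 while the nuclear members had 0.09. Among the enrichment libraries HC VEH 3 stood apart in the mitochondrial list, at a summed 18200 CPM beside 4550 to 9540 in the others, and it was among the lowest libraries for the nuclear members. Of 44 assembly factors in the minocycline table, Sdhaf3, an assembly factor of complex II, was called higher in PFC CUMS than in NAIVE (3.40, SE 0.79, edgeR adjusted p = 0.0482), with a list median of 0.14. In that comparison 0.741% of all genes were called higher, as were 7 of 12 astrocyte and 4 of 12 endothelial and mural markers, whose part in the level of Sdhaf3 was not tested. In glycolysis Slc2a1, a glucose transporter, was called higher in the HC (0.39, SE 0.10, edgeR adjusted p = 0.0441), 1 of 20 genes (list median -0.01), a share near the 5.1% of all genes called there. No gene of the tricarboxylic acid cycle, of the regulators of mitochondrial gene expression or of the mitochondrial ribosome was called in any of the 13 comparisons by edgeR.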

How the data were processed

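RNA of sorted CD11b+ cells was sequenced from strand-specific polyA libraries, per the labels' protocols. The deposited values are raw counts per Ensembl gene in 2 tables, one of 15 and one of 12 libraries. Per the submitters' processing notes the tools were Trimmomatic 0.36, STAR 2.6.1b, Picard 2.17.1, featureCounts 1.5.3 and DESeq2 1.24.0 on mm10. The annotation release, the strand setting and the treatment of duplicates are not given in the sources used here. Symbols and exon lengths came from GENCODE M21, which matched 53326 of 53412 and 55154 of 55421 identifiers.

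The members and lists were chosen with earlier results of these data known. Each table was fitted on its own in edgeR 4.0.16 (R 4.3.3, limma 3.58.1) with 1 mean per region and treatment, filterByExpr (minimum count 10), TMM scaling and the quasi-likelihood test, with 9 and 8 residual degrees of freedom. P-values were adjusted by Benjamini-Hochberg across the table's tested genes, and a gene is called where they are under 0.05. Promoters came from RefSeq. Named genes are the members called, at most 12, and the member of smallest p in each complex, with 1 fixed subunit a complex and the tissue isoforms for levels, and the called genes of each pathway list, at most 3. Precision is set by 2 or 3 libraries a group and by depth, with 7867323 to 23902719 counts a library. Alternatives were DESeq2 1.42.0 size factors and its Wald test, no filter and a stricter filter, only the groups compared, a block for the replicate number, the mean of non-microglial markers as a covariate, each library left out, and 2 alternatives chosen after the data were seen. No pair of replicates in a group agreed within sampling noise.

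Replicate numbers come from the labels, which do not say that a number marks a shared animal or day. Deviations from the group mean correlated over 0.1 in every pair only for PFC VEH with PFC EE (0.359, 0.198 and 0.208). The code was tested on simulated counts. Figures were drawn with matplotlib 3.10.9.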

Additional observations from a re-analysis of the deposited data

How the results depend on the processing

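No member was called in a treatment comparison by DESeq2, and DESeq2 called the 6 genes of the edgeR test between regions. With no filter on low counts 1 member was called in PFC CUMS_M against NAIVE, 1 in HC EE against VEH and 10 between the regions of the minocycline table. The share of all genes called in that setting is not given here, so these counts cannot be set against it. With the replicate block within treatment 4 members were called between those regions (Atp5d, Atp5o, Ndufv3 and Uqcr10). With the block within region the median of complex III in PFC CUMS_M against NAIVE was 0.179, and the block, also where the numbers pair the PFC VEH and EE libraries, changed no other call. With the covariate of non-microglial markers 0 members were called between regions. In that fit PFC CUMS against NAIVE had medians of -0.106 (complex II) and -0.13 (IV). The HC minus PFC difference of CUMS_M against CUMS was then -0.105 (I) and -0.05 (II), with Sdha at -0.05, and Sdhd in PFC CUMS_M against CUMS was 0.04. The causes were not tested.

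Leaving out 1 library at a time gave these ranges, with a lone library assumed to vary like the other groups. The counts of calls have no share of all genes from the same fits beside them. Calls ran from 0 to 1 in PFC CUMS against NAIVE, 0 to 2 in PFC CUMS_M against NAIVE, 0 to 1 in the regional difference of CUMS against NAIVE and 1 to 7 between the regions. In PFC CUMS against NAIVE medians ran from -0.1 to 0.254 over all members, -0.078 to 0.19 (II), -0.106 to 0.254 (IV) and -0.069 to 0.311 (V). In PFC CUMS_M against CUMS they ran from -0.172 to 0.171, -0.177 to 0.17 (I), -0.173 to 0.146 (III) and -0.188 to 0.284 (IV), with Sdhd from -0.2 to 0.03 and Uqcr10 from -0.04 to 0.61. In PFC CUMS_M against NAIVE they ran from 0.001 to 0.23 (III) and -0.027 to 0.284 (IV). In HC CUMS against NAIVE they ran from -0.258 to 0.027, -0.239 to 0.027 (I), -0.282 to 0.046 (III), -0.217 to 0.141 (IV) and -0.291 to 0.016 (V). In HC CUMS_M against CUMS complex I ran from -0.068 to 0.114 and Uqcrfs1 from -0.03 to 0.18. In HC CUMS_M against NAIVE they ran from -0.231 to -0.009 (II) and -0.241 to 0.12 (IV). The regional difference of CUMS against NAIVE ran from -0.402 to -0.014, -0.272 to 0.064 (I), -0.377 to -0.095 (II), -0.558 to -0.139 (III), -0.37 to -0.014 (IV) and -0.438 to -0.029 (V). That of CUMS_M against CUMS ran from -0.112 to 0.198, -0.078 to 0.202 (I), -0.064 to 0.191 (II), -0.25 to 0.192 (IV) and -0.118 to 0.188 (V). That of EE against VEH ran from -0.035 to 0.472, -0.034 to 0.413 (I), -0.02 to 0.442 (II), -0.136 to 0.532 (IV) and -0.03 to 0.468 (V). Sdhc ran from -0.03 to 0.33 in HC EE against VEH and from -0.04 to 0.2 between the regions of the enrichment table.

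Isoforms with few counts, such as Cox8b and Ndufa4l2, have wide intervals at this depth.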
